A study of Mus musculus with 4 samples.

Results

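The 38 genes described here encode the folding machinery of the endoplasmic reticulum (ER) and the unfolded protein response, the signalling system that adjusts that machinery to demand. They were taken from a list of ER chaperones, ER-associated degradation genes and stress-response genes. All 38 were found among the 34866 genes of the deposited count table, and all 38 passed the filter on low counts that left 14067 genes for testing. RNA came from the gastric mucosa of the corpus of mice, and the submitters compared genotypes to learn whether Muc6, a gland mucin gene, bears on gastric cancer. Libraries were available for 2 genotypes, Muc6 +/+ (wild type 1 and 2) and Muc6 -/- (knockout 1 and 2). The labels give no treatment, age, strain or sex, do not say how the Muc6 allele was made, and do not say whether the libraries of a genotype came from different animals, so p-values measure only how far these samples spread, and that spread may be technical.

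Proteins that enter the secretory pathway fold in the ER with the help of chaperones, disulfide isomerases and lectins that read their N-glycans. When unfolded protein accumulates, the sensors IRE1 (Ern1), ATF6 (Atf6) and PERK (Eif2ak3) signal to the nucleus. IRE1 splices Xbp1 mRNA, and XBP1 together with cleaved ATF6 induces chaperones and degradation genes, while PERK slows translation and, through ATF4 and CHOP (Ddit3), induces amino acid supply and stress genes. In the stomach, zymogen-secreting chief cells and mucus-secreting cells carry a heavy load of secreted protein.

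The libraries held 20327745 to 27946423 counts each. Muc6 gave 8542 and 6000 counts in the wild-type libraries 1 and 2, and 0 and 10 counts in the knockout libraries, which matched the labels. Levels below are in CPM, the counts divided by the library size after scaling it by trimmed mean of M-values (TMM) and expressed at a common size, always in the order of libraries 1 and 2. The 10 parietal cell markers of the corpus were present in every library and summed to 18778 and 17812 CPM (wild type) against 2018 and 6651 CPM (knockout). Knockout 1 stood apart: its antral transcripts Gast, Pdx1, Nkx6-3 and Onecut2 summed to 214 CPM, where the other libraries had 0.781 to 3.01 CPM, and its chief cell markers summed to 2335 CPM, where the others had 64368 to 147852 CPM. Markers of mucous neck and metaplastic cells (Muc6 among them) summed to 16188 and 11023 CPM in knockout, above wild type (2779.6 and 2103 CPM). Of these 9, 7 were higher without overlap, Muc6 was lower and A4gnt overlapped. Tff2 gave 11709 and 7314 CPM of the knockout sums. Markers of dividing cells also summed higher in both knockout libraries (609 and 551 CPM over 347 and 268 CPM). Pit cell markers, those of the surface mucous cells, summed lower in both knockout libraries (70673 and 54090.3 CPM) than in wild type (121500.0 and 80768 CPM), with 4 of 6 lower without overlap. The 4 Y-linked genes measured summed to 136 and 121 CPM in the wild-type pair but 1.43 and 2.44 CPM in the knockout pair, so genotype and Y-linked expression cannot be told apart in any result. In bulk tissue, fewer cells of a type and less RNA per cell cannot be told apart. The part of these cell type differences in the results on the list was not tested.

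The promoters of the list hold different elements in its different arms, and they are shown first because the arms are compared below. The ER stress response element (ERSE), which ATF6 and XBP1 are known to act through, reads CCAAT, then any 9 bases, then CCACG. It was searched on both strands of RefSeq promoter windows (GRCm38.p6, the assembly also called mm10) that run from 250 bases before to 50 bases after each annotated start. Windows were held for 34 of the 38 genes. ERSE occurred in 7 of the 14 chaperone and folding enzyme genes with a window, in 2 of 8 degradation genes, and in none of the 7 genes of the ATF4/CHOP arm, against 39 of all 32851 promoter windows (0.119%). The sites of 6 chaperone genes and 2 degradation genes are shown with 10 bases on each side, read 5′ to 3′ in the direction of the gene, with both fixed parts of the element in capitals. A site on the other strand reads CGTGG, 9 bases, ATTGG.
Hspa5, plus strand of chr2:34772015-34772053: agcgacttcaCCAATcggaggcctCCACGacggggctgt
Pdia6, plus strand of chr12:17266481-17266519: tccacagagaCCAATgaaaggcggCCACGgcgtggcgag
Dnajc3, plus strand of chr14:118937817-118937855: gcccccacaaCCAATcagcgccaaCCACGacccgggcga
Canx, minus strand of chr11:50325790-50325828: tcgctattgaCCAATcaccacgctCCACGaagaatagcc
Calr, minus strand of chr8:84847065-84847103: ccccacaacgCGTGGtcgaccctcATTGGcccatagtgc
Creld2, plus strand of chr15:88819510-88819548: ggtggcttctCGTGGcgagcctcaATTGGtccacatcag
Syvn1, plus strand of chr19:6046522-6046560: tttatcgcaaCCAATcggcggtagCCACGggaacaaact
Derl3, plus strand of chr10:75893232-75893270: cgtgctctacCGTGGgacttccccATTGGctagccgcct
The Hspa5 site lay 65 to 47 bases before the start, and the Hsp90b1 window held 2 sites.

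Another element was found in the ATF4/CHOP arm. The C/EBP-ATF response element, searched as TGATG, any 1 base, then AA on both strands, occurred in 4 of the 7 genes of that arm (57.1%), in none of the 14 chaperone genes and in 3.97% of all windows. The variant element ERSE-II (ATTGG, 1 base, CCACG) was found in Dnajb11 and Herpud1 and in 0.0365% of all windows, and the XBP1 core, TGACG followed directly by TGG, in no member window and 0.676% of all windows. These matches describe letters in a window and do not show binding. The C/EBP-ATF elements of the arm are shown with their fixed letters in capitals, followed by the ERSE-II site of Herpud1, a gene with both kinds of element in its window.
Asns, minus strand of chr6:7693215-7693242: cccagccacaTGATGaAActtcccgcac
Chac1, plus strand of chr2:119351039-119351066: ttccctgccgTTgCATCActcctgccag
Atf3, minus strand of chr1:191183426-191183453: cttctcgcacTTgCATCAccaagtccgc
Trib3, minus strand of chr2:152344029-152344056: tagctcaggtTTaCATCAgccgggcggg
Herpud1, plus strand of chr8:94386367-94386397: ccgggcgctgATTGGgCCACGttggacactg

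Across the list, 15 of 16 chaperones and folding enzymes and all 3 glycan-handling enzymes were higher in both knockout libraries, and the degradation and ATF4/CHOP genes had no common direction. In the ATF4/CHOP arm, 3 of 7 genes were lower in both knockout libraries and 4 overlapped with wild type. No member passed edgeR's quasi-likelihood test after Benjamini-Hochberg adjustment, and neither did any other gene (0 of 14067, 0.0%). At an unadjusted p under 0.05 the same test took 11 members as higher (28.9% of 38, against 9.22% of all genes tested) and 1 as lower (2.63%, against 6.68%). DESeq2 called 8 members higher and 1 lower at an adjusted p under 0.05, where it called 4.06% and 3.36% of all genes higher and lower. Both knockout libraries lay above both wild-type libraries for 20 members (52.6%, against 26.3% of all genes tested) and below both for 7 (18.4%, against 23.8%). The median log2 fold change was 0.25 over the members and -0.0017 over all genes tested. No list was tested as a set, and the members were chosen with earlier results of these data known.

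**Figure D1:**
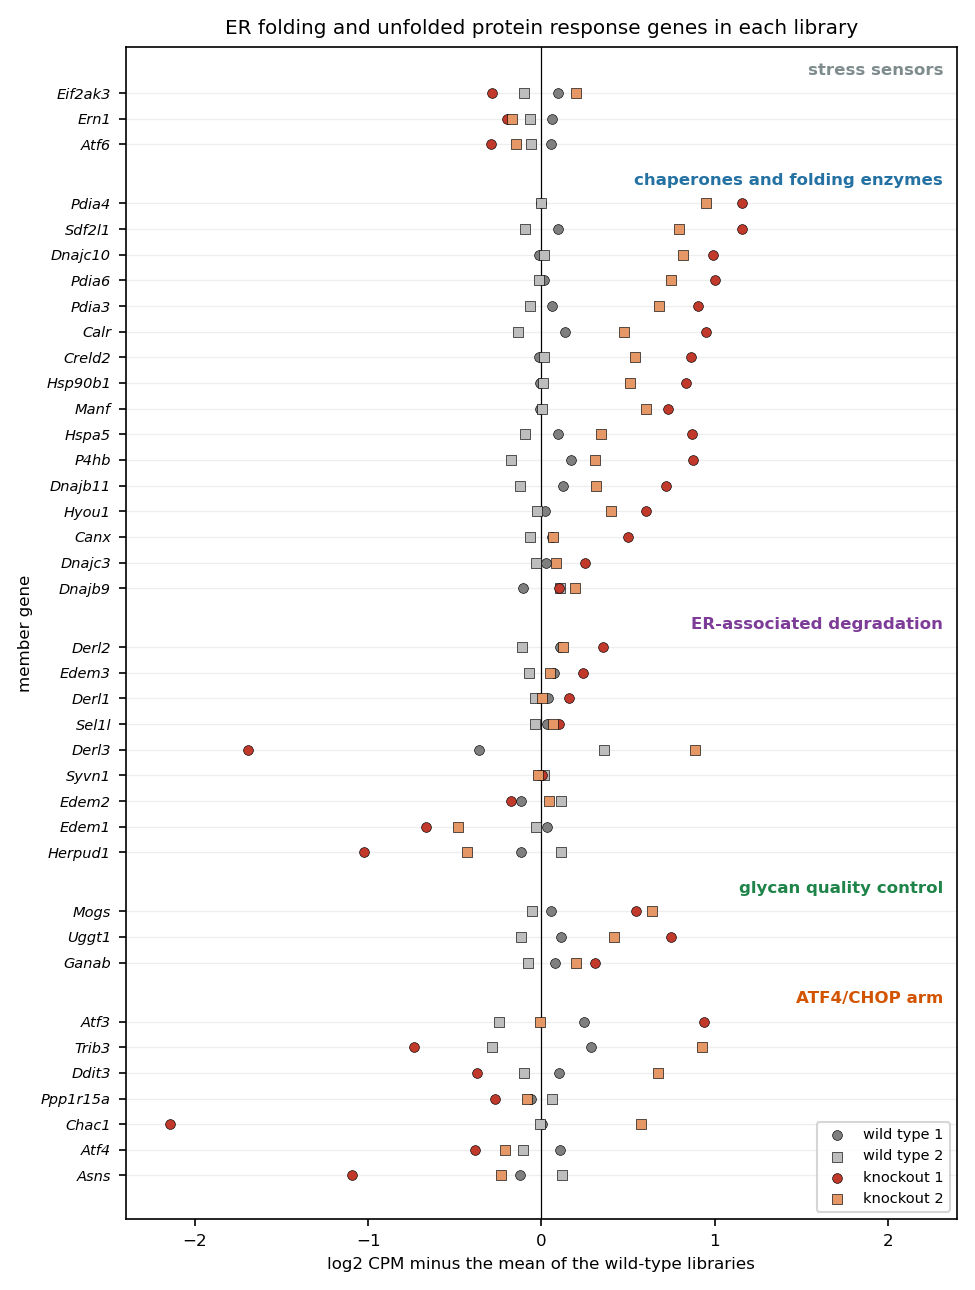
Level of each of the 38 members in each library, as log2 CPM minus the mean of the wild-type libraries (horizontal axis), with genes grouped by role and ordered by fold change. Points are libraries, grey for wild type and red or orange for knockout; in the chaperone group 15 of 16 genes have both knockout points above both wild-type points, while Chac1, Derl3, Trib3 and Ddit3 have their knockout points on either side of wild type.

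Chaperones and folding enzymes had the same direction throughout. All 16 had a positive log2 fold change, from 0.14 to 1.06 with a median of 0.68, and for 15 of them (all but Dnajb9) both knockout libraries exceeded both wild-type libraries, where 26.3% of all genes did. With edgeR, 9 of the 16 were higher at an unadjusted p under 0.05 (56.2%, against 9.22% of all genes tested). DESeq2 called 7 higher at an adjusted p under 0.05, where it called 4.06% of all genes higher. These were Hsp90b1, Dnajc10, Sdf2l1, Pdia3, Pdia4, Pdia6 and Manf. Knockout 1 lay above knockout 2 in 15 of the 16. Relative to wild type, the group median was 0.87 log2 units in knockout 1 and 0.50 in knockout 2.

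Pdia4, a disulfide isomerase of the ER, had the largest fold change of the members. It stood at 82.5 and 82.5 CPM in the wild-type libraries and 185 and 159.7 CPM in the knockouts. Both knockout values lay far above the wild-type values, which were equal to 3 digits. The log2 fold change of 1.06 ± 0.16 (SE, 2 libraries per genotype) had an adjusted p of 0.209 with edgeR and 2.16e-05 with DESeq2. Sdf2l1, a partner of ER-resident DnaJ proteins, stood at 25.9 and 22.7 CPM in wild type versus 54.2 and 42.1 CPM in knockout (0.99 ± 0.19, edgeR adjusted p = 0.210, DESeq2 adjusted p = 0.0117). Dnajc10, a DnaJ protein with disulfide reductase domains, stood at 152 and 156 CPM in wild type versus 306 and 272 CPM in knockout (0.91 ± 0.18, edgeR adjusted p = 0.212, DESeq2 adjusted p = 1.44e-04). In these 3 genes the gap between genotypes exceeded the gap within either.

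Other disulfide isomerases were likewise higher in both knockout libraries. Pdia6 stood at 177 and 173 CPM in wild type versus 351 and 294 CPM in knockout (log2 fold change 0.88 ± 0.19). Pdia3, which works with the lectin chaperones on glycoproteins, stood at 509.9 and 467 CPM in wild type versus 915 and 783 CPM in knockout (0.80 ± 0.22). P4hb, the founding member of the family and also a subunit of collagen prolyl hydroxylase, stood at 1058 and 831 CPM in wild type versus 1718 and 1164 CPM in knockout (0.61 ± 0.32). In all 3, knockout 1 was the highest library and wild type 2 the lowest, and P4hb carried the largest error of the chaperone group.

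The Hsp70 and Hsp90 chaperones of the ER had intermediate fold changes. Hspa5 (BiP), the Hsp70 that holds the stress sensors inactive when it is not engaged by client proteins, stood at 639.7 and 561 CPM in wild type versus 1096 and 760.1 CPM in knockout. Knockout 1 was clearly above the rest and knockout 2 nearer to wild type. The log2 fold change was 0.63 ± 0.28, and 0.29 without knockout 1. Hsp90b1 (GRP94), the Hsp90 of the ER, stood at 549 and 556 CPM in wild type versus 984 and 787 CPM in knockout (0.68 ± 0.23). Other genes cover 15.7% of the exonic bases of Hsp90b1, and how the counting treated strand is not given. Hyou1, a large Hsp70 relative and exchange factor of BiP, stood at 126 and 122 CPM in wild type versus 189 and 164 CPM in knockout (0.51 ± 0.17).

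The stress-induced proteins Creld2 and Manf were among the steadiest members within wild type. Manf stood at 75.9 and 76.5 CPM in wild type versus 127 and 116 CPM in knockout (0.67 ± 0.14, edgeR adjusted p = 0.226, DESeq2 adjusted p = 0.0117). Creld2 stood at 36.0 and 36.7 CPM in wild type versus 66.3 and 53.0 CPM in knockout (0.71 ± 0.16, edgeR adjusted p = 0.229, DESeq2 adjusted p = 0.0674). For both genes the wild-type libraries nearly coincided and both knockout libraries lay above them. Other genes share 9.25% of the exonic bases of Manf.

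The DnaJ co-chaperones of BiP differed among themselves. Dnajb11, which feeds clients to BiP, stood at 94.7 and 79.7 CPM in wild type versus 143 and 108 CPM in knockout (0.53 ± 0.21). Dnajc3, a co-chaperone also known as an inhibitor of PERK, stood at 190.1 and 183 CPM in wild type versus 222 and 197 CPM in knockout (0.17 ± 0.17). Dnajb9, a target of XBP1 that represses IRE1, stood at 30.0 and 34.7 CPM in wild type versus 34.6 and 36.9 CPM in knockout (0.14 ± 0.14). The fold changes of Dnajc3 and Dnajb9 were about the size of their errors, and for Dnajb9 the genotypes overlapped.

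The lectin chaperones hold monoglucosylated glycoproteins in the folding cycle. Calr (calreticulin), the soluble one, stood at 574 and 475 CPM in wild type versus 1008 and 728 CPM in knockout (0.73 ± 0.28). Canx (calnexin), its membrane-bound relative, stood at 309 and 283 CPM in wild type versus 419 and 310.4 CPM in knockout (0.30 ± 0.24). The knockout 2 level of Canx was nearly that of wild type 1, and its log2 fold change was 0.02 without knockout 1. The difference between Calr and Canx was not tested.

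Genes that trim and check N-glycans in the ER lay on the side of the chaperones. All 3 were higher in both knockout libraries, where 26.3% of all genes tested were, with a median log2 fold change of 0.59. Mogs, the first glucosidase to act on the transferred glycan, stood at 47.5 and 44.0 CPM in wild type versus 66.9 and 71.2 CPM in knockout (0.59 ± 0.13, edgeR adjusted p = 0.228, DESeq2 adjusted p = 0.0398). Among the chaperone and glycan genes, Mogs and Dnajb9 were the ones with a higher level in knockout 2 than in knockout 1. Uggt1, the glucosyltransferase that re-tags misfolded glycoproteins, stood at 88.9 and 75.7 CPM in wild type versus 138 and 109.8 CPM in knockout (0.59 ± 0.20). Ganab, the catalytic subunit of the next glucosidase, stood at 169 and 152 CPM in wild type versus 199 and 184 CPM in knockout (0.26 ± 0.17).

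Among the ER-associated degradation genes, many of them also XBP1 or ATF6 targets, no common direction was seen. Of the 9, 2 (Sel1l and Derl2) were higher in both knockout libraries, 2 (Herpud1 and Edem1) were lower in both, and 5 overlapped, with a median log2 fold change of 0.07. The shares of 22.2% each way were near those of all genes tested (26.3% higher, 23.8% lower). Herpud1, a membrane scaffold of the degradation complex, stood at 309 and 362 CPM in wild type versus 165 and 248 CPM in knockout. Both knockout values lay under both wild-type values (-0.70 ± 0.28, edgeR adjusted p = 0.340). Edem1, a lectin that hands misfolded glycoproteins to degradation, stood at 128 and 122 CPM in wild type versus 78.6 and 89.5 CPM in knockout (-0.57 ± 0.15, edgeR adjusted p = 0.247, DESeq2 adjusted p = 0.0244). It was the member taken as lower at an unadjusted p under 0.05.

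The core of the retrotranslocation complex was nearly level across the libraries. Syvn1, the ubiquitin ligase HRD1, stood at 50.4 and 51.4 CPM in wild type versus 51.2 and 50.2 CPM in knockout (-0.0067 ± 0.12). Its partner Sel1l stood at 189.9 and 181 CPM in wild type versus 199 and 194 CPM in knockout (0.08 ± 0.16). The mannosidase-like proteins Edem2 and Edem3 had log2 fold changes of -0.07 ± 0.16 and 0.15 ± 0.16, and the channel proteins Derl1 and Derl2 of 0.08 ± 0.14 and 0.24 ± 0.16. Each of these but Derl2 lay within its own error of 0.

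Derl3, the derlin typical of professional secretory cells, differed from Derl1 and Derl2 in its spread. It had 90 and 116 counts in wild type versus 31 and 212 counts in knockout, or 3.63 and 6.04 CPM and 1.39 and 8.75 CPM. The knockout libraries lay on either side of wild type, and the log2 fold change was 0.07 ± 0.95. Bhlha15 (MIST1), the regulator of the secretory apparatus in chief cells, was likewise lower in library 1 of each genotype, with 9.60 and 29.7 CPM in wild type versus 0.897 and 20.8 CPM in knockout. Plasma cells also make Derl3, and their 9 markers, of which 4 were tested, summed to 255 and 239 CPM in wild type versus 378 and 246 CPM in knockout. Most of each sum came from Sdc1. These markers did not run in 1 order: Jchain (3.47 and 49.4 versus 6.95 and 20.2 CPM) was higher in library 2 of each genotype, while Sdc1 (247 and 183 versus 357 and 219 CPM) and Prdm1 (4.07 and 3.07 versus 12.0 and 4.75 CPM) were higher in library 1 of each. Pou2af1 stood at 0.484 and 1.04 versus 1.66 and 0.909 CPM, and Mzb1 had 0 and 15 counts versus 8 and 7 counts. The remaining markers also had few counts, and each had more in wild type 2 than in wild type 1. Cd79a had 2 and 17 counts versus 6 and 6, and Irf4 had 2 and 10 versus 7 and 6. Tnfrsf13b had 3 and 10 counts versus 1 and 6, and Tnfrsf17 had 0 and 2 versus 0 and 1. The part of either cell type in the Derl3 values was not tested.

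The sensors were not higher in knockout. Ern1 stood at 46.2 and 42.2 CPM in wild type versus 38.5 and 39.2 CPM in knockout (-0.19 ± 0.12). Atf6 stood at 70.5 and 65.0 CPM in wild type versus 55.3 and 61.1 CPM in knockout (-0.22 ± 0.14). Both had their knockout values under their wild-type values, as did 23.8% of all genes tested. Eif2ak3 stood at 56.8 and 49.5 CPM in wild type versus 43.5 and 61.0 CPM in knockout and overlapped (-0.02 ± 0.22). The activity of all 3 sensors is set by cleavage, splicing or phosphorylation, which gene counts do not show.

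In the ATF4/CHOP arm no gene was higher in both knockout libraries, where 26.3% of all genes tested were. Of its 7 genes, 3 (Atf4, Asns and Ppp1r15a) were lower in both (42.9%, against 23.8% of all genes tested) and 4 overlapped, with a median log2 fold change of -0.18. None of the 7 reached an unadjusted p of 0.05 with edgeR, and the lowest adjusted p was 0.475. Atf4, the transcription factor that is regulated mainly through its translation, stood at 189.5 and 164 CPM in wild type versus 135 and 152 CPM in knockout (-0.30 ± 0.18). Asns, the asparagine synthetase gene that is a standard ATF4 target, stood at 137 and 162 CPM in wild type versus 69.7 and 126 CPM in knockout (-0.61 ± 0.34). Knockout 1 was the lowest library for both. Ppp1r15a (GADD34), which reverses PERK signalling, stood at 19.9 and 21.7 CPM in wild type versus 17.2 and 19.6 CPM in knockout (-0.18 ± 0.15).

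Within the same arm, Chac1, Ddit3 and Trib3 had their knockout libraries on either side of wild type. Chac1, a glutathione-degrading enzyme gene downstream of ATF4, had 264 and 203 counts in wild type versus 52 and 384 counts in knockout, or 10.7 and 10.6 CPM and 2.33 and 15.9 CPM. The wild-type values were alike, while knockout 1 was below and knockout 2 above them. Ddit3 (CHOP) had 252 and 169 counts in wild type versus 163 and 367 counts in knockout, or 10.2 and 8.80 CPM and 7.31 and 15.2 CPM. Other annotated genes cover 10.9% of its exonic bases. Among them are Mars on the opposite strand and another entry on the same strand that is also named Ddit3. Counts of that other entry are not included in these values. Trib3, a pseudokinase induced by CHOP, had 151 and 78 counts in wild type versus 66 and 231 counts in knockout, or 6.09 and 4.06 CPM and 2.96 and 9.54 CPM. Both genes were lowest in knockout 1 and highest in knockout 2. Atf3, a stress factor gene that many stimuli induce, was instead highest in knockout 1, with 30.9 and 21.98 CPM in wild type versus 50.1 and 25.9 CPM in knockout (0.52 ± 0.39).

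The fits without 1 knockout library give the value on the other. Without knockout 2 the log2 fold change was -2.24 for Chac1, -0.82 for Trib3 and -0.43 for Ddit3, and Chac1 had an adjusted p of 0.0396 in edgeR. That fit, with 1 knockout library, called 851 of 14672 genes (5.8%), among them 3 of the 38 members, where the fit on all libraries called 0. Without knockout 1 the log2 fold changes were 0.53 for Chac1, 0.87 for Trib3 and 0.63 for Ddit3, so the sign of all 3 depended on the library. Knockout 1 was also the library with few chief cell transcripts: Pgc, the pepsinogen C gene of chief cells, stood at 63619 and 145529 CPM in wild type versus 2238 and 79868 CPM in knockout. Over the 7 chief cell markers tested, the median log2 level relative to wild type was -3.45 in knockout 1 and 0.84 in knockout 2. Slc9a3, listed with them but low in wild type, was the one above wild type in knockout 1. It was above in knockout 2 as well (1.05 and 1.15 versus 13.7 and 14.7 CPM), and its rise is not read as one of chief cells. In knockout 2 the markers ranged from -0.27 (Pgc) to 3.64 (Slc9a3), with Cym next highest at 2.03. The eighth marker, Lipf, had 0 counts in all 4 libraries. The part of chief cells in the values of the ATF4/CHOP arm was not tested.

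**Figure D2:**
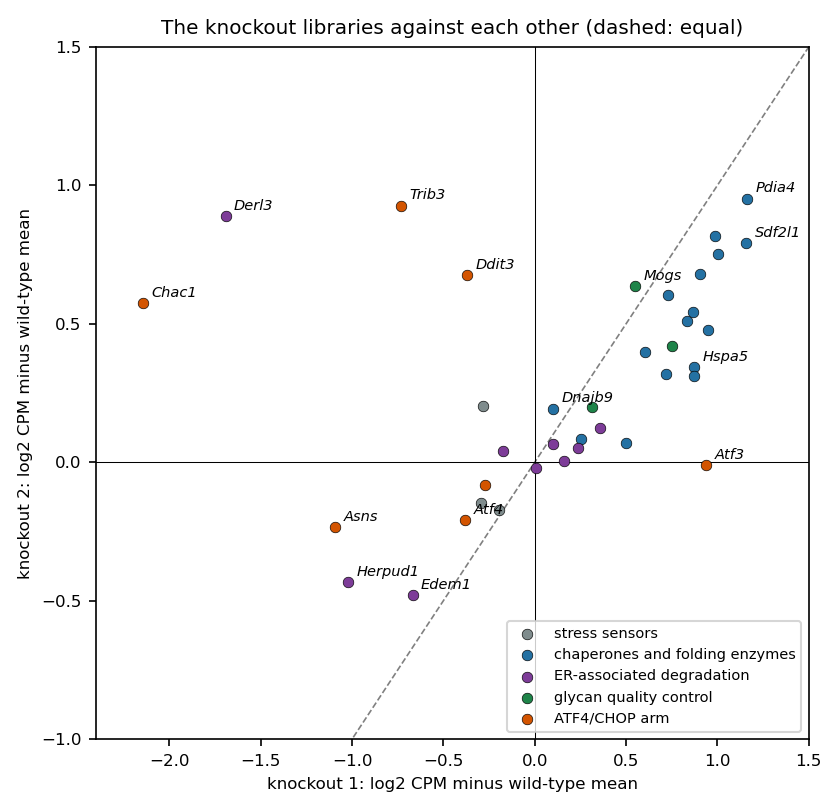
Each of the 38 members by its level in knockout 1 (horizontal axis) and knockout 2 (vertical axis), both as log2 CPM minus the wild-type mean; colours mark the groups of genes and the dashed line marks equal values. Chaperone genes sit in the upper right quadrant and mostly below the dashed line, whereas Chac1, Derl3, Trib3 and Ddit3 sit in the upper left, low in knockout 1 and high in knockout 2.

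Set side by side, the medians of the ATF6/XBP1 chaperone arm and the ATF4/CHOP arm parted in both knockout libraries. In knockout 2 the ATF4/CHOP median (-0.01) lay within the wild-type range (-0.10 to 0.10), and the genes of that arm were split. There Trib3 (0.93), Ddit3 (0.67) and Chac1 (0.58) exceeded the chaperone median of 0.50. Atf3 (-0.01), Ppp1r15a (-0.08), Atf4 (-0.21) and Asns (-0.24) lay below the wild-type mean. The median of the chaperone arm minus that of the ATF4/CHOP arm was -0.08 and 0.08 log2 units in wild type 1 and 2, 1.25 in knockout 1 and 0.51 in knockout 2. In the fit over all libraries the arms stood at 0.68 and -0.18, a difference of 0.85. In this difference both knockout libraries lay outside the range of the wild-type libraries. That range is a weak reference, because each gene was set relative to the wild-type mean, which makes the wild-type values mirror images. The standard deviation between libraries of a genotype, pooled over the genotypes, was 0.38 log2 units. With 2 libraries against 2, an exact permutation test cannot give a p below 0.333, and none is given. The difference was 1.25 in the fit without knockout 2 and 0.52 in the fit without knockout 1. With the degradation genes added to the chaperone arm, that arm's median was 0.51 and the difference 0.68.

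**Figure D3:**
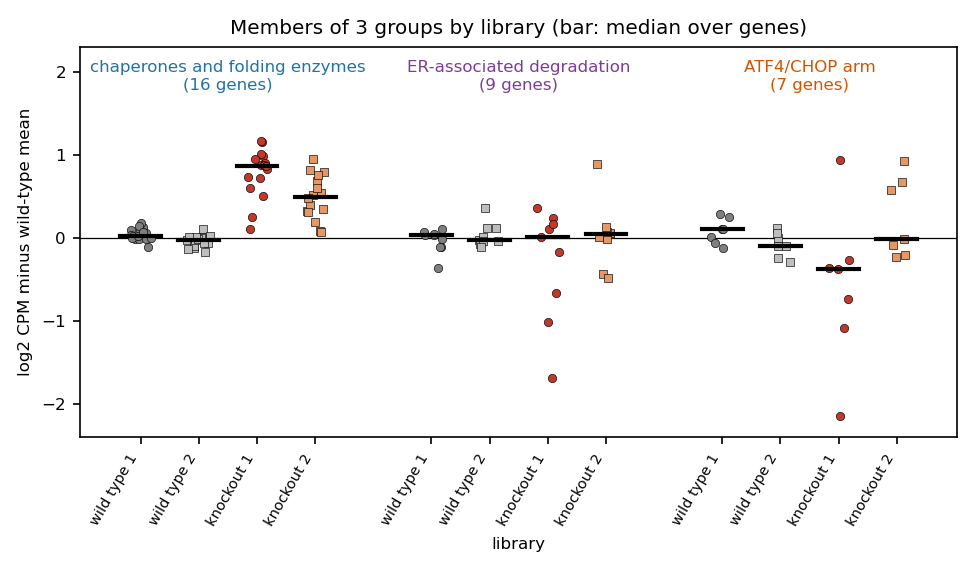
Members of the chaperone group (16 genes), the degradation group (9 genes) and the ATF4/CHOP arm (7 genes) in each library, as log2 CPM minus the wild-type mean (vertical axis). Points are genes and black bars are medians over genes; the chaperone median is 0.87 in knockout 1 and 0.50 in knockout 2, and the ATF4/CHOP median is -0.38 and -0.01.

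Within the chaperone group, genes with and without an exact ERSE had overlapping fold changes. The 7 genes with the element (Hspa5, Hsp90b1, Dnajc3, Pdia6, Calr, Canx and Creld2) had log2 fold changes of 0.17 to 0.88 with a median of 0.68. The 7 with a window but no exact match (Dnajb9, Dnajb11, Dnajc10, Sdf2l1, Pdia3, Pdia4 and P4hb) had 0.14 to 1.06 with a median of 0.80. The degradation genes Syvn1 and Derl3, whose sites are printed above, had -0.0067 and 0.07. In the ATF4/CHOP arm the 4 genes with a C/EBP-ATF element ranged from -0.61 to 0.52. No test was made of these differences.

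Levels per length of exon were highest for lumenal chaperones and for Herpud1. In wild type, P4hb had a level of 330.1 CPM per kilobase of exon, Calr 182, Pdia3 156, Herpud1 144, Hspa5 142 and Hsp90b1 137. From Pdia3 to Hsp90b1, neighbours in this order overlapped between their wild-type libraries. In knockout, the levels were 504 CPM per kilobase for P4hb, 301 for Calr, 270.4 for Pdia3, 219 for Hspa5, 219.7 for Hsp90b1 and 88.5 for Herpud1. The lowest members in wild type were Trib3 and Derl3, at 2.39 and 2.43 CPM per kilobase. The lengths are of all annotated exons of a gene together, which understates genes with long exons that are little used in this tissue.

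Other genes of the pathway, from lists of textbook genes, were mixed. Of 144 listed genes in the table, 139 were tested. None passed edgeR's adjusted threshold. At an unadjusted p under 0.05, 14 were higher (10.1%, against 9.22% of all genes tested) and 8 lower (5.76%, against 6.68%), so these shares were near the background. DESeq2 called 8 higher and 3 lower, where it called 4.06% and 3.36% of all genes. Their median log2 fold change was 0.06. Both knockout libraries lay above both wild-type libraries for 47 of them and below for 29, or 33.8% and 20.9%, against 26.3% and 23.8% of all genes tested.

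Regulators upstream of the chaperones were mostly near their wild-type level. Xbp1, the target of IRE1 splicing, stood at 324 and 325 CPM in wild type versus 236 and 342 CPM in knockout (-0.17 ± 0.25), with no view of its spliced form. Ern2, the IRE1 of mucus-secreting epithelia, had a log2 fold change of 0.08 ± 0.22, and Atf6b, the relative of ATF6, of 0.29 ± 0.12. Among the membrane-bound factors of the CREB3 family, which are released by cleavage as ATF6 is, Creb3l3 stood at 1.86 and 0.781 CPM in wild type versus 27.2 and 9.21 CPM in knockout (3.77 ± 0.78, edgeR adjusted p = 0.226, DESeq2 adjusted p = 6.89e-05). Creb3l3 is best known from liver and intestine. Creb3 had 0.42 ± 0.16 and Creb3l2 -0.59 ± 0.28, while Creb3l1 stood at 97.3 and 103 CPM in wild type versus 71.4 and 164 CPM in knockout. Of the proteases that cleave these factors, Mbtps2 had -0.25 ± 0.15.

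Folding enzymes outside the list included some with larger differences than any member. Agr2, the disulfide isomerase that mucin-producing cells need to make mucins, stood at 379 and 306 CPM in wild type versus 757 and 1280.3 CPM in knockout (1.57 ± 0.35, edgeR adjusted p = 0.229, DESeq2 adjusted p = 2.30e-04). Its level was higher in knockout 2 than in knockout 1. Pdia5, another disulfide isomerase, stood at 13.1 and 10.9 CPM in wild type versus 42.6 and 40.0 CPM in knockout (1.78 ± 0.16, edgeR adjusted p = 0.159, DESeq2 adjusted p = 1.51e-09). Erp29 and the ER peroxiredoxin gene Prdx4 had 0.95 ± 0.21 and 0.62 ± 0.12. The thioredoxin-like membrane proteins Tmx2 and Tmx4 were lower in both knockout libraries, at -1.05 ± 0.28 and -1.26 ± 0.37, as was the prolyl isomerase gene Fkbp2 at -0.51 ± 0.15. The oxidases that recharge the isomerases, Ero1l and Ero1lb, overlapped between genotypes (-0.28 ± 0.45 and -0.44 ± 0.47).

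Genes of the translocon, through which new chains enter the ER, and of signal peptide handling had small differences. The 23 genes of this list had a median log2 fold change of 0.10 and ranged from -0.36 to 0.44. Both knockout libraries lay above both wild-type libraries for 12 of them (52.2%, against 26.3% of all genes tested). They lay below both for 3 (13.0%, against 23.8%). With edgeR, 1 gene was higher at an unadjusted p under 0.05 (4.35%, against 9.22%), the signal recognition particle gene Srp19 (0.44 ± 0.12). Ssr2 had 0.41 ± 0.17 and the channel gene Sec61a1 0.34 ± 0.17, while Srp54a had -0.23 ± 0.13, Spcs3 -0.20 ± 0.16 and Ssr4 -0.11 ± 0.14. The 26 other degradation genes stayed between -0.40 and 0.31 with a median of -0.02, and none reached an unadjusted p of 0.05. Among them Vcp, the ATPase that pulls proteins out of the membrane, had -0.36 ± 0.18, the ubiquitin-conjugating enzyme gene Ube2g2 -0.28 ± 0.12 and Ubxn8 -0.26 ± 0.14, while Aup1 had 0.31 ± 0.15, Man1b1 0.30 ± 0.16 and Tor1a 0.24 ± 0.15.

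Further ATF4 targets went both ways. Of 34 tested, 16 had a positive and 18 a negative log2 fold change, with a median of -0.05. Gdf15, a stress cytokine gene that p53 also induces, stood at 0.444 and 0.260 CPM in wild type versus 9.28 and 4.42 CPM in knockout (4.25 ± 0.64, edgeR adjusted p = 0.209, DESeq2 adjusted p = 9.29e-06). Also higher in both knockout libraries were the serine synthesis gene Psat1 (0.90 ± 0.18) and the transcription factor gene Cebpb (0.89 ± 0.18). Vldlr, a lipoprotein receptor gene, stood at 54.7 and 46.4 CPM in wild type versus 22.8 and 25.2 CPM in knockout (-1.07 ± 0.15, edgeR adjusted p = 0.206, DESeq2 adjusted p = 1.45e-04). Also lower in both were Stc2 (-0.56 ± 0.16), the cystathionine-cleaving enzyme gene Cth (-1.16 ± 0.38) and the cystine transporter gene Slc7a11 (-1.21 ± 0.53). The stress genes Sesn2 and Ddit4 had 0.35 ± 0.17 and 0.58 ± 0.35, and Ddit4 was -0.0076 without knockout 1.

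**Figure D4:**
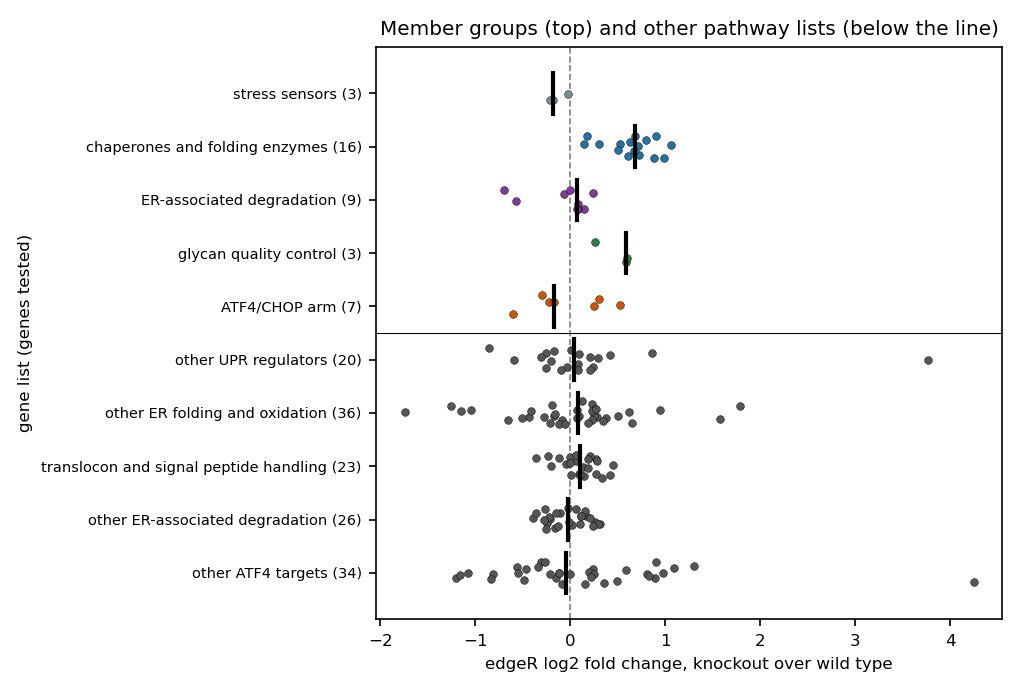
Log2 fold change of knockout over wild type from edgeR (horizontal axis) for the 5 groups of members above the line and the 5 lists of other pathway genes below it, with the number of genes tested in brackets. Points are genes, black bars are medians and the dashed line is the median of all genes tested; the chaperone and glycan groups have medians of 0.68 and 0.59, and the 5 other lists lie between -0.05 and 0.10.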

How the data were processed

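A stranded library kit for mRNA was used after column-based RNA isolation, per the labels' protocols. The genome build is mm10, per the submitters' processing notes; no source used here names the aligner or the counting program. The deposited table holds expected counts per gene, not normalized. Of its nonzero values 35.0% were not whole (tolerance 1e-09), and all were rounded for the tests.

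Of 34866 rows, 34652 matched GENCODE M21 by identifier. Genotypes were compared with edgeR 4.0.16 in R 4.3.3 (quasi-likelihood test, robust dispersion, TMM factors, filterByExpr with a minimum of 10 counts) over 14067 genes. Calls used a Benjamini-Hochberg adjusted p under 0.05, and each standard error was taken as the size of the fold change over the square root of F. DESeq2 1.42.0 was an alternative. Log2 CPM used a prior count of 2. The fit was first tested on simulated data, where it recovered 23 of 339 2-fold changes (6.8%) at an adjusted p under 0.05. The libraries within a genotype differed by more than sampling noise (chi-square per degree of freedom 139 and 272).

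The members and lists were chosen with earlier results of these data known. Named were all members, Muc6, a fixed set of pathway genes, and in each pathway list up to 3 genes per direction with the smallest p among those without overlap between groups. Cell type markers and Y-linked genes are given only as limits. Promoter windows came from RefSeq. Other settings were relative log expression factors, library sizes computed after dropping the 20 most abundant genes, no filter, the replicate number as a block, other arm memberships, means for medians, and leaving out each library.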

Additional observations from a re-analysis of the deposited data

How the results depend on the processing

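The positive median of the chaperone arm, the negative median of the ATF4/CHOP arm and the positive difference between them kept their sign under all settings tried, as did 29 of the 38 members. The ATF4/CHOP value was small in some settings. It was -0.0338 with means in place of medians, where the difference was 0.68. It was -0.0959 when the 20 most abundant genes were dropped from library sizes. The number of members past the adjusted threshold went from 0 to 9 with DESeq2 (pathway genes: 11). Leaving out each library in turn gave 0 to 3 members (Sdf2l1, Pdia4 and Chac1, all without knockout 2) and 0 to 12 pathway genes. The fit without knockout 2 called 5.8% of all genes, 7.89% of the members and 8.63% of the pathway genes. Leaving out each library also gave chaperone medians of 0.45 (without knockout 1) to 0.81, ATF4/CHOP medians of -0.44 (without knockout 2) to -0.0741 and differences of 0.52 to 1.25. Fits without 1 library assume that the lone library of its genotype varies like the other pair. Members that changed sign, of which 6 did so only when a library was left out, all had small or widely spread values. When the 20 most abundant genes were dropped from library sizes, Eif2ak3 was at 0.0491 and Syvn1 at 0.0410. Leaving out each library gave ranges of -0.34 to 0.15 for Eif2ak3, -0.24 to 0.0459 for Edem2, -0.0428 to 0.13 for Derl1, -1.86 to 0.80 for Derl3, -0.43 to 0.63 for Ddit3, -0.0741 to 0.87 for Atf3, -0.82 to 0.87 for Trib3 and -2.24 to 0.53 for Chac1. The cause was not tested. With the replicate number as a block the chaperone median was 0.67, no gene passed, and Derl3 was at -0.37; same-numbered libraries deviated together (correlation 0.517 across genes), but the labels do not say that the numbers pair them. Trib3, Chac1 and Derl3 had low counts and knockout libraries far apart (knockout 1 minus knockout 2: -1.66, -2.72 and -2.58 log2 units). Their standard errors were 0.66, 0.92 and 0.95, so a difference as large as the chaperone median was not detectable for them. The limit was not confined to these genes: on simulated data the edgeR fit recovered 6.8% of 2-fold changes.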
